A study of Homo sapiens with 9 samples.

Results

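RAD52 (ENSG00000002016) and C1orf112 (ENSG00000000460, also named FIRRM) were the 2 genes of DNA repair by homologous recombination among the 49 genes whose counts were analysed. They were selected by name, with their counts in all 3 comparisons known. Their levels and fold changes are therefore given as a description, without a p-value, and support no claim about the groups. RNA-seq measured polyA RNA in 9 libraries of HK-2 cells, an immortalized cell line from the human proximal tubule. The shCtrl-Normal group (n = 3) carried the control shRNA and is labelled as normal. The shCtrl-AGEs group (n = 3) carried the control shRNA and received AGEs (advanced glycation end products, proteins modified by sugars) at 400 μg/ml for 72 h. The shJMJD1A-AGE group (n = 3) received the same AGEs and carried an shRNA against JMJD1A (KDM3A), a demethylase of histone H3 lysine 9. All 9 libraries thus came from cells transduced with a lentiviral shRNA, and for JMJD1A only 1 shRNA sequence is given. The deposited treatment text is the same for all 9, so what shCtrl-Normal cells received in place of AGEs was not given in the sources used here. The sources do not say if replicates were separate cultures, so the spread between them may be technical.

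The counts of the 49 genes summed to between 67563 and 107036 per library, which is not the depth of the library. KDM3A was not analysed here, so the knockdown could not be checked in these counts. Of 13 proximal tubule markers and 7 markers of other kidney cells, 0 were among the genes analysed, so the identity of the cells was not checked either. In bulk RNA, a lower level in every cell and a loss from some of the cells cannot be told apart.

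Homologous recombination repairs broken DNA by copying from a matching strand. RAD52 binds single-stranded DNA and anneals complementary strands. In human cells it is known for single-strand annealing, a way of joining breaks between repeated sequences. The protein of C1orf112 binds the ATPase FIGNL1, and the complex is needed for repair of crosslinks between the strands of DNA.

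RAD52 lies on the minus strand of chromosome 12 of GRCh38 from 911736 to 990053 and has 19 transcripts in GENCODE release 44. Its MANE Select transcript, the reference transcript agreed on by Ensembl and RefSeq, has 12 exons and 1254 coding bases in 3023 bases. C1orf112 lies on the plus strand of chromosome 1 from 169662007 to 169854080 and has 9 transcripts. Its MANE Select transcript starts at 169795040 and has 25 exons, with 2559 coding bases in 4011 bases. The start regions of both transcripts are shown as a description. Levels of both genes were lowest in the same group, as were those of some other genes named below. A link of the start regions to these levels was not tested. The start regions were taken from RefSeq (GRCh38.p14, symbols RAD52 and FIRRM), and both genes matched. Each ends 30 bases after the start of the transcript. That of RAD52 is chr12:949665-949944 on the minus strand. That of C1orf112 is chr1:169794964-169795069 on the plus strand and begins at the base next to METTL18, which starts there and is transcribed the other way. G and C make up 61.4% of the bases shown for RAD52 and 66.0% for C1orf112. Capitals mark GGCGGGA, a core of sites for E2F factors, which drive genes of DNA replication and repair.
RAD52 start region: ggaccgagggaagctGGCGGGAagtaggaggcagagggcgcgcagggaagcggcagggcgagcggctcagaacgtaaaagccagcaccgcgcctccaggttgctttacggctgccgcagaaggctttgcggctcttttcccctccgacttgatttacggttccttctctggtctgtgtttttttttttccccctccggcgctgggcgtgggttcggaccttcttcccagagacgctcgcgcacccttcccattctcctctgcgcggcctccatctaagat
C1orf112 start region: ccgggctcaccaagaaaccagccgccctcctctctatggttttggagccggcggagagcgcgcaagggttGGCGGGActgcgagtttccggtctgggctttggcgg

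Counting the first transcribed base as 1 and the base before it as −1, the core began at −235 in RAD52 and at −6 in C1orf112. It occurs, on either strand, in 15.4% of 35116 RefSeq promoters of 300 bases (250 before the start and 50 after it). In the full 300 bases of C1orf112 there was also TTTGAA, the CHR element of cell cycle promoters, from base 37, and ACGTG, the core of hypoxia response elements, from −205. Both lie outside the bases shown, and the ACGTG lies within METTL18. TTTGAA and ACGTG occur on either strand in 15.2% and 21.4% of promoters. RAD52 held neither, and CCAAT, the box bound by NF-Y and present in 34.6% of promoters, was in neither gene. The motifs were searched on both strands and were chosen after the sequences were seen. A match is a string of letters and not evidence that a factor binds there.

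The annotation limits what the counts of these genes can mean. SCYL3, which encodes a pseudokinase, lies on the other strand of chromosome 1 from 169849631 to 169894267 and runs into the end of C1orf112. Its last exon, exon 13, covers all or part of exons 23, 24 and 25 of C1orf112, and 1184 bases or 29.5% of the MANE Select transcript of C1orf112 are exonic in SCYL3. The strand setting of the counting is not given in the sources used here, so reads from this stretch cannot be assigned to either gene. SCYL3 was among the genes analysed, and its values are therefore given beside those of C1orf112. METTL18 shares 91 exonic bases with transcripts of C1orf112 that start further upstream and was not analysed here. RAD52 shares 233 exonic bases, 5.17% of its exonic sequence, with the long noncoding RNA gene ENSG00000250132 on its own strand. WNK1 on the other strand ends 284 bases from the end of RAD52, with no shared exonic base.

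**Figure D1:**
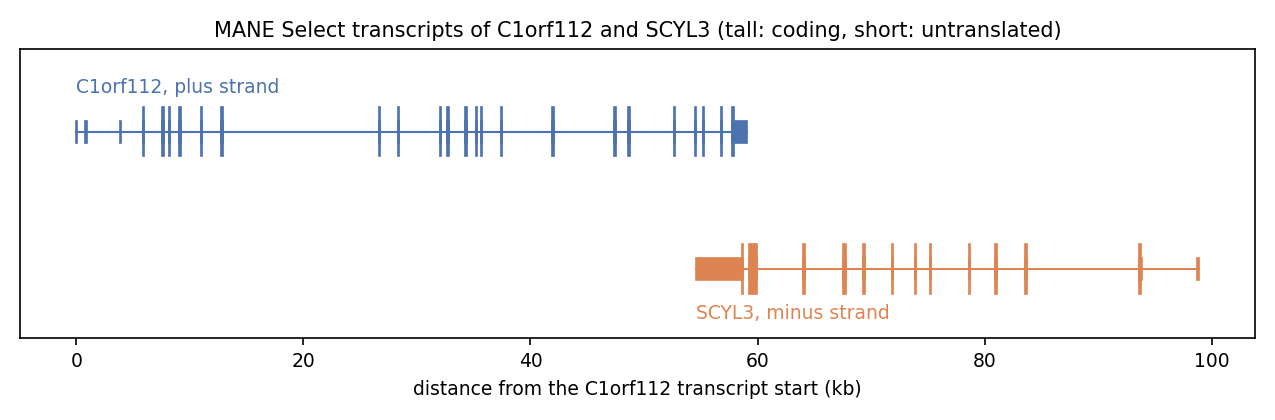
MANE Select transcripts of C1orf112 and SCYL3 on chromosome 1, drawn to scale by distance in kb from the start of C1orf112, with tall boxes for coding sequence, short boxes for untranslated sequence and lines for introns. The 3′ ends of the 2 genes lie across each other, and 1184 bases of C1orf112 exons are also exonic in SCYL3.

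Levels are given as normalized counts, that is, counts scaled by TMM (a trimmed mean of the ratios between libraries) over all 9 libraries. For RAD52 they were 457, 462 and 421 in shCtrl-Normal, from 523, 515 and 480 reads. In shCtrl-AGEs they were 326, 310 and 327, from 332, 293 and 309 reads. In shJMJD1A-AGE they were 478, 472 and 441, from 427, 379 and 439 reads. The 3 shCtrl-AGEs libraries were therefore the 3 lowest of the 9, and the other 6 lay in 1 overlapping range.

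The order of the group means of RAD52 was shJMJD1A-AGE with 463 ± 19.8 (SD, n = 3), shCtrl-Normal with 447 ± 22.6 (SD, n = 3) and shCtrl-AGEs with 321 ± 9.29 (SD, n = 3). The first 2 did not differ beyond their spread. The spread within groups was 2.89% to 5.06% of the mean. That is about the size that counting alone would give at these read numbers, 4.45% to 5.67%.

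For C1orf112 the normalized counts were 424, 389 and 427 in shCtrl-Normal, from 485, 433 and 487 reads. They were 340, 376 and 383 in shCtrl-AGEs, from 346, 355 and 362 reads. They were 493, 459 and 412 in shJMJD1A-AGE, from 441, 369 and 410 reads. The shCtrl-AGEs libraries were again the 3 lowest, but the highest of them came close to the lowest shCtrl-Normal library, and the shJMJD1A-AGE libraries were the most spread.

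The group means of C1orf112 were 455 ± 41.0 (SD, n = 3) in shJMJD1A-AGE, 413 ± 21.1 (SD, n = 3) in shCtrl-Normal and 366 ± 23.0 (SD, n = 3) in shCtrl-AGEs. The upper 2 did not differ beyond their spread. In shJMJD1A-AGE the spread was 9.02% of the mean, against 4.96% from counting alone. SCYL3, the gene across its 3′ end, had 281 ± 33.2 (SD, n = 3) in shCtrl-Normal, 255 ± 11.1 (SD, n = 3) in shCtrl-AGEs and 301 ± 48.8 (SD, n = 3) in shJMJD1A-AGE. Its order of means was that of C1orf112, but its groups overlapped. The count of C1orf112 per count of SCYL3 in a library was 1.49 ± 0.238 (SD, n = 3), 1.44 ± 0.148 (SD, n = 3) and 1.52 ± 0.139 (SD, n = 3) in these 3 groups, which overlapped. The part of reads from the shared bases in these values was not tested.

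**Figure D2:**
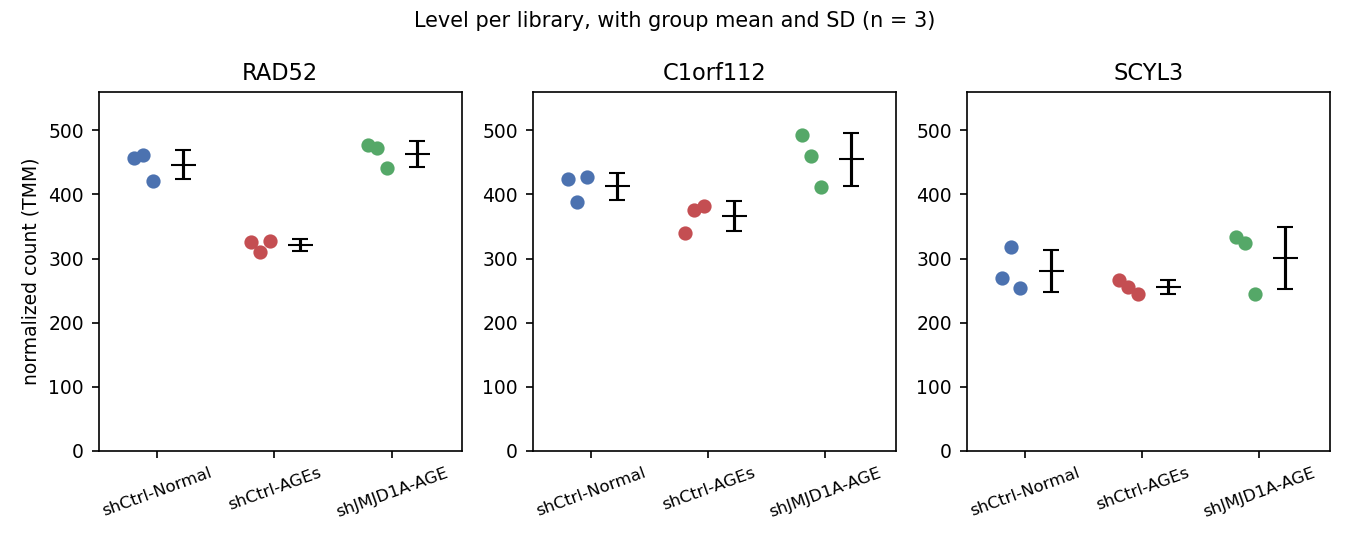
Normalized count (TMM) of RAD52, C1orf112 and SCYL3 in each of the 9 libraries (points), with the mean and SD of each group (bars, n = 3). The shCtrl-AGEs libraries of RAD52 lie between 310 and 327 and the other 6 between 421 and 478, while those of C1orf112 come within a few counts of shCtrl-Normal and the groups of SCYL3 overlap.

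Levels of the 2 genes were compared per kb of exonic sequence. In shCtrl-Normal the normalized count per kb was 99.2 ± 5.02 (SD, n = 3) for RAD52 and 69.2 ± 3.54 (SD, n = 3) for C1orf112. In shCtrl-AGEs the same quantity was 71.3 ± 2.06 (SD, n = 3) and 61.4 ± 3.85 (SD, n = 3), and in shJMJD1A-AGE 103 ± 4.41 (SD, n = 3) and 76.2 ± 6.87 (SD, n = 3). On this scale RAD52 ranked 28th and C1orf112 33rd of the 49 genes from the highest. How reads from the bases shared with SCYL3 enter this level was not tested.

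The comparison of shCtrl-AGEs with shCtrl-Normal asks what AGEs do to the transcriptome of these cells. RAD52 was lower in shCtrl-AGEs, with a log2 fold change of −0.44 (standard error 0.0976), or 0.737 times the level. That of C1orf112 was −0.14 (standard error 0.0968), or 0.909 times. Without shCtrl-AGEs replicate 1 the value of C1orf112 was −0.08. RAD52 had the 4th lowest log2 fold change of the 46 genes tested and C1orf112 the 13th lowest, beside a median of −0.01 over all genes tested. By edgeR's quasi-likelihood test over all genes tested, 1 of the 2 genes, RAD52, passed (adjusted p under 0.05 by Benjamini-Hochberg), as did 32.6% of the 46 genes, in either direction. Of the genes that passed, 9 were higher and 6 lower with TMM, and 6 were higher and 11 lower with plain totals. Both genes had groups that did not overlap, as did 47.8% of the genes. At an unadjusted p under 0.05 it was 1 of the 2, beside 47.8% of the genes. Since the 2 genes were chosen with this contrast known, nothing is read from these counts. The gap between the groups of C1orf112 was narrow, 0.864 to 11.6 normalized counts under 3 scalings, and for RAD52 it was 86.8 to 94.1.

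The comparison of shJMJD1A-AGE with shCtrl-AGEs asks what silencing of JMJD1A changes in cells under AGEs. It shares the shCtrl-AGEs libraries with the comparison before it, so low values in those libraries enter both. RAD52 was higher after silencing, with a log2 fold change of 0.50 (standard error 0.0984), or 1.41 times the level. That of C1orf112 was 0.28 (standard error 0.108), or 1.22 times. They had the 7th and the 13th highest log2 fold change of the 45 genes tested, with a median of 0.04 over all genes tested. RAD52 passed, which makes 1 of the 2 genes, beside 42.2% of the 45 genes. At an unadjusted p under 0.05 it was 2 of the 2, beside 53.3% of the genes. Both genes had groups that did not overlap, as did 53.3% of the genes. C1orf112 did not pass here but did in 6 of 15 alternatives, among them without shJMJD1A-AGE replicate 3, where its log2 fold change was 0.34. In these 6, between 20 and 28 of the 45 to 49 genes tested passed, beside 19 of 45 with the settings reported. Without shJMJD1A-AGE replicate 3 it was 28 of 45. When counts were scaled by plain totals, the median of all genes tested moved by 0.148 on the log2 scale, and the log2 fold changes of the 2 genes became 0.65 and 0.43. Of the genes that passed, 9 were higher and 10 lower with TMM, and 13 were higher and 8 lower with plain totals.

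The comparison of shJMJD1A-AGE with shCtrl-Normal sets silenced cells under AGEs against the group labelled as normal. The log2 fold change was 0.08 (standard error 0.12) for RAD52 and 0.17 (standard error 0.131) for C1orf112, beside a median of 0.06 over all genes tested. Of the 2 genes, 0 passed by edgeR's test, in a comparison in which 40.0% of 45 genes passed. At an unadjusted p under 0.05 it was also 0 of the 2, beside 48.9% of the genes, and DESeq2 called 0 of the 2, beside 36.7% of 49 genes. Also 0 of the 2 had groups that did not overlap, against 55.6% of the genes. With plain totals the groups of C1orf112 did not overlap, but the share of genes without overlap was counted with TMM only. Plain totals also moved the median over the 45 genes tested from 0.06 to 0.13 on the log2 scale. The part of the scaling in this gap of C1orf112 was not tested. A gene that does not pass is not shown to be at the same level in both groups.

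**Figure D3:**
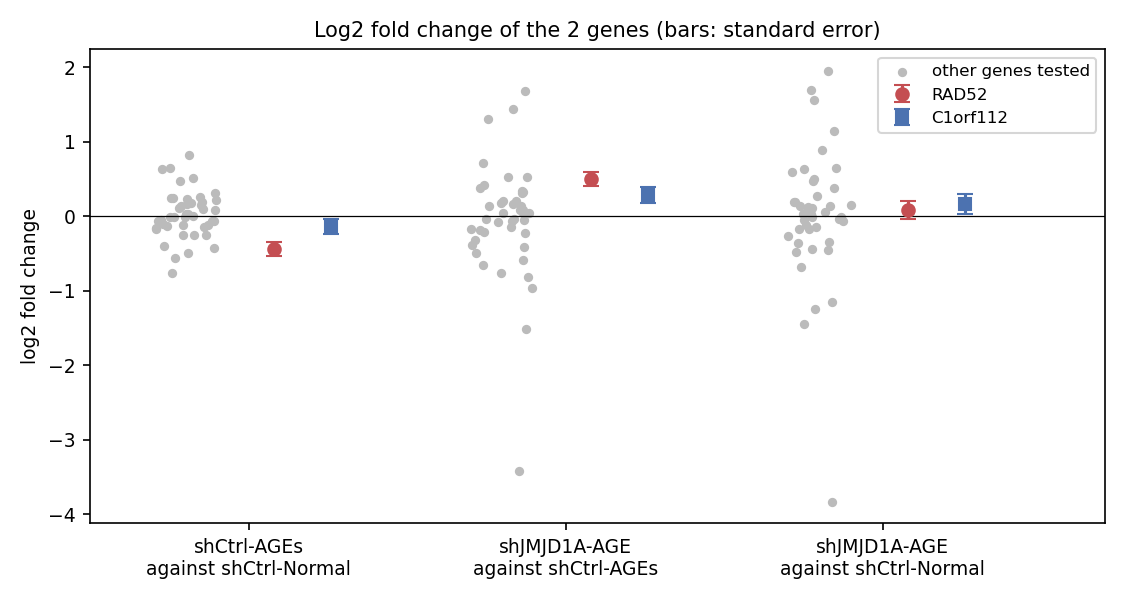
Log2 fold change of RAD52 (circles) and C1orf112 (squares) in the 3 comparisons, with standard errors as bars, beside every other gene tested (grey points, 46 genes tested in the first comparison and 45 in the others, with the 2 genes included). RAD52 lies at −0.44, 0.50 and 0.08 and C1orf112 at −0.14, 0.28 and 0.17, within the range of the other genes.

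The ratio of the 2 genes within a library needs no scaling between libraries. In shCtrl-Normal the RAD52 count per C1orf112 count was 1.08, 1.19 and 0.986. In shCtrl-AGEs it was 0.960, 0.825 and 0.854, and in shJMJD1A-AGE it was 0.968, 1.03 and 1.07. The 3 shCtrl-AGEs libraries had the 3 lowest ratios, and the other groups overlapped. The gap was narrow, from 0.960 in shCtrl-AGEs replicate 1 to 0.968 in shJMJD1A-AGE replicate 1. The group means were 1.08 ± 0.102 (SD, n = 3), 0.879 ± 0.0707 (SD, n = 3) and 1.02 ± 0.0514 (SD, n = 3). On the log2 scale the ratio of shCtrl-AGEs was below that of shCtrl-Normal by a difference of −0.30 (standard error 0.102). That of shJMJD1A-AGE was above shCtrl-AGEs by 0.22 (standard error 0.0781). The log2 ratio of shJMJD1A-AGE minus that of shCtrl-Normal was −0.08 (standard error 0.0888), and it was −0.01 without shCtrl-Normal replicate 2 and −0.15 without shCtrl-Normal replicate 3. In both comparisons with the shCtrl-AGEs libraries, RAD52 thus differed by more than C1orf112. These counts were known when the genes were chosen, so this is a description.

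**Figure D4:**
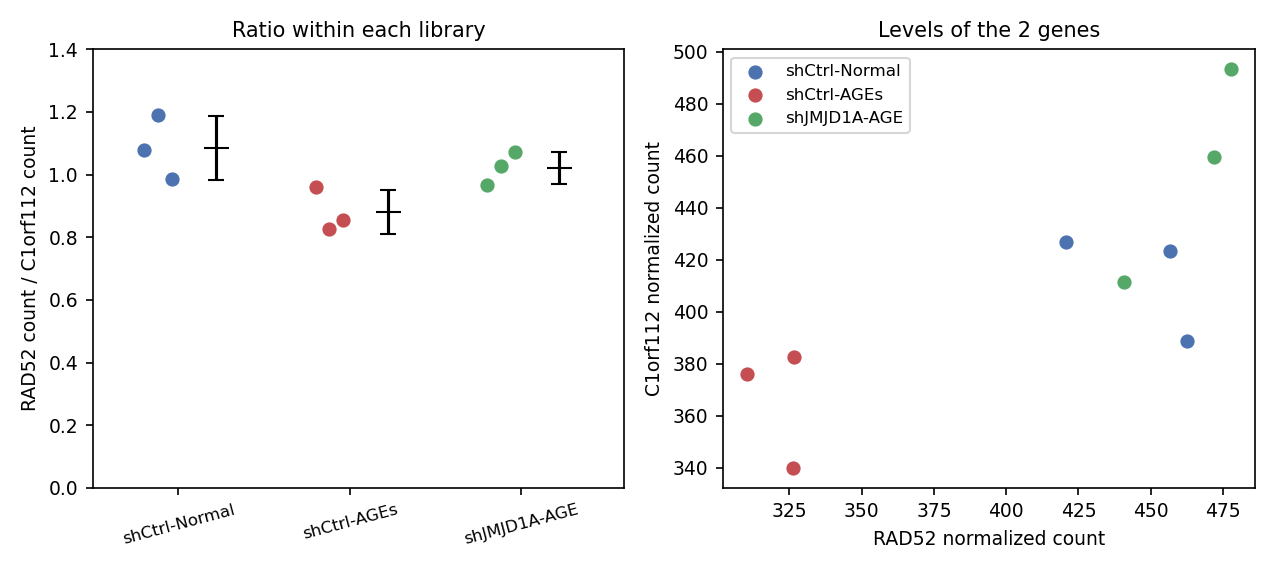
Left, count of RAD52 divided by count of C1orf112 in each library, with the mean and SD of each group (n = 3), on an axis from 0. Right, normalized count of C1orf112 against that of RAD52 in the 9 libraries, on axes that do not start at 0. The shCtrl-AGEs ratios of 0.825 to 0.960 are below the other 6, of which the lowest is close, at 0.968. The shCtrl-AGEs libraries form the lower left of the right-hand plot.

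Few other genes of DNA repair were among those analysed. A list of homologous recombination with 52 symbols held RAD52 and C1orf112 and no other gene of the 49. Lists of crosslink repair (15 genes), end joining (11 genes) and the DNA damage checkpoint (17 genes) held 0 of them. C1orf112 was listed under homologous recombination only, although its protein also acts in crosslink repair. Mismatch and excision repair (20 genes) held POLDIP2, whose protein binds DNA polymerase delta and its clamp PCNA. Mitosis and proliferation (23 genes) held MAD1L1, a protein of the spindle checkpoint. POLDIP2 had 2449 ± 118 (SD, n = 3) normalized counts in shCtrl-Normal, 2001 ± 128 (SD, n = 3) in shCtrl-AGEs and 2728 ± 367 (SD, n = 3) in shJMJD1A-AGE. It passed as lower with AGEs, at a log2 fold change of −0.26 (standard error 0.06), and as higher after silencing, at 0.42 (standard error 0.102). In shJMJD1A-AGE against shCtrl-Normal it did not pass, at 0.18 (standard error 0.102), and its groups overlapped. MAD1L1 did not pass in any of the 3 comparisons, with log2 fold changes of −0.01, 0.14 and 0.15.

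By Pearson correlation, the genes whose levels over the 9 libraries were most like those of RAD52 were LAS1L, C1orf112 and POLDIP2. Their Pearson correlations of log2 normalized counts with RAD52 were 0.87, 0.78 and 0.74, the highest of 45 genes compared. Their Spearman correlations were 0.75, 0.83 and 0.52. The Spearman order differed: CFTR was highest at 0.95, and POLDIP2 was not among the 3 highest. LAS1L acts in the maturation of ribosomal RNA. It had 1762 ± 60.2 (SD, n = 3) normalized counts in shCtrl-Normal, 1543 ± 58.2 (SD, n = 3) in shCtrl-AGEs and 1982 ± 71.4 (SD, n = 3) in shJMJD1A-AGE, so its 3 groups did not overlap.

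For C1orf112 the most alike genes were CFTR, RAD52 and LAS1L, with correlations of 0.90, 0.78 and 0.76. CFTR, a chloride channel of epithelia, had only 5 to 37 reads per library, with 12.1 ± 2.37 (SD, n = 3) normalized counts in shCtrl-Normal, 7.99 ± 2.66 (SD, n = 3) in shCtrl-AGEs and 26.6 ± 15.2 (SD, n = 3) in shJMJD1A-AGE. The least alike gene was DBNDD1, at −0.79. All 9 libraries share the group structure and the scaling, so these values are a description and carry no p-value. After the group means were taken out, the correlation of RAD52 with C1orf112 was 0.16, with LAS1L 0.04 and with POLDIP2 −0.82. That of C1orf112 was 0.78 with CFTR, −0.30 with LAS1L and −0.02 with DBNDD1. The correlation of RAD52 with C1orf112 over the 9 libraries was thus larger than that within groups.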

How the data were processed

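RNA from HK-2 cells was sequenced in 9 libraries, 3 per group, with groups and replicate numbers taken from the sample titles. Per the labels and the paper, the authors used Trim Galore on the reads, Hisat2 2.1.0 for mapping to GRCh38 and featureCounts for counting per gene. The deposited values are raw counts, used as they are. The strand setting and annotation release are not given in the sources used here. All 49 gene IDs were matched to GENCODE release 44.

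Each pair of groups was fitted over all genes in R 4.3.3 with edgeR 4.0.16 (filterByExpr with minimum count 10 and minimum total 15, TMM, robust quasi-likelihood F test, no covariate). P-values were adjusted by Benjamini-Hochberg over all genes tested. Standard errors were obtained as |log2 fold change| / √F. Fold changes come from TMM within 2 groups and levels from TMM over 9 libraries, so they can differ slightly. FGR, WNT16 and CD38 did not pass the filter over all 9 libraries. Ratios within a library and correlations used a pseudocount of 0.5. The fits were also run on simulated counts. The changes planted there were larger than those of the 2 genes, so calls of that size were not tested by it. Within groups, pairs of libraries differed by more than counting noise (chi-square per degree of freedom 5.02 to 28.4), so no library was counted as a repeat deposit of another.

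The 2 genes and all lists were chosen with earlier results of these data known. Genes named besides them overlap them or lie within 100 kb, are on the lists, or are the 3 most and the 1 least correlated with each over the 9 libraries, of which 1 is not reported here. Alternatives were 1 fit of all 3 groups, a replicate block, DESeq2 size factors, the DESeq2 1.42.0 Wald test, dropping the filter, requiring a mean count of 50, plain totals, a pseudocount of 1 and leaving out each library. Fits without LASP1 and without SCYL3 were added after seeing the data.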

Additional observations from a re-analysis of the deposited data

How the results depend on the processing

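RAD52 kept its direction and its call, or lack of one, in 15 of 15 alternatives in each comparison. Its log2 fold change lay between −0.50 and −0.41 for AGEs, 0.47 and 0.65 for silencing and 0.04 and 0.14 for shJMJD1A-AGE against shCtrl-Normal. C1orf112 kept its direction in 15 of 15 in each comparison, with −0.20 to −0.08 for AGEs and 0.12 to 0.24 for shJMJD1A-AGE against shCtrl-Normal, not called in any of these. The differences of the log2 ratio of both genes ranged over 7 alternatives from −0.37 to −0.23, from 0.17 to 0.28 and from −0.15 to −0.01 in the 3 comparisons. After silencing, C1orf112 did not pass with the settings reported. Its own log2 fold change passed with all 3 groups in one fit (0.31), DESeq2 size factors (0.31), the DESeq2 Wald test (0.31), no filter (0.35) and plain totals (0.43). In these fits, in that order, 23 of 46, 21 of 45, 22 of 49, 20 of 49 and 21 of 45 genes passed. Leaving out 1 library gave 0.24 to 0.34 for C1orf112, and the call was made only without shJMJD1A-AGE replicate 3. In that fit 28 of 45 genes passed, beside 19 of 45 with the settings reported. The cause was not tested. The number of genes that passed stayed within 1.5 times the values reported in every alternative.

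With the replicate number as a block, 16, 19 and 19 genes passed in the 3 comparisons and no call of the 2 genes changed. The numbers were not taken to pair libraries: of 9 same-numbered pairs, 4 had a correlation of deviations above 0.1 (range −0.47 to 0.31), and 0 of 9 libraries correlated best with its own number. With 3 libraries per group and counting error alone at 4.45% to 5.67% of the mean of these genes, small changes are not resolved. Scaling rests on 49 genes, not on a whole transcriptome, so a fold change is relative to those genes.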
